A study of Mus musculus with 4 samples.

Results

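The 4 genes described here, Kap, Odc1, Acsm3 and Gusb, are transcripts that androgens are known to induce in mouse kidney. They were taken as the array rows whose 1 annotated gene symbol is one of these names, and all 4 were found among the 19934 genes measured. Kap, Acsm3 and Gusb have 1 row each. Odc1 has 2, and the row with the higher mean over all arrays was used. No signal filter was applied, so no member was lost to one.

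Whole kidneys of Usp2 knockout mice (Usp2-KO) were compared with those of wild-type littermates (WT). Usp2 codes for a protease that cleaves ubiquitin off its substrates, and its transcript is known to respond to androgens in prostate cells. All mice were C57BL6/N males aged 12 weeks, kept in equal hours of light and dark and killed at Zeitgeber time 12, and the labels name no treatment in either group. The mice were 6 littermate pairs. Their kidney RNA was pooled by 3 within a genotype, with littermates in matching pools, and each of the 2 pools per genotype was measured on 1 array. A pool averages over its mice, and how or in which cells Usp2 was deleted is not given in the labels. No hormone level is given.

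Testosterone reaches the kidney from the blood and changes transcription in proximal tubule cells. In mice this makes the kidneys of males larger than those of females and gives the male proximal tubule a transcript profile of its own. Kap, the kidney androgen-regulated protein, is made in the proximal tubule and has long served as a marker of androgen action. Odc1, ornithine decarboxylase, makes putrescine and is the rate-limiting enzyme of polyamine synthesis. Acsm3 is a mitochondrial enzyme that joins medium-chain fatty acids to coenzyme A. Gusb is beta-glucuronidase, a lysosomal enzyme that splits glucuronic acid from its substrates.

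Promoter sequence was available for all 4 genes from RefSeq (build GRCm38.p6), and the 250 bases before the 1 transcript start it lists for each were searched on both strands. For Kap and Gusb that start is the outer end of the annotated gene. For Odc1 and Acsm3 it lies inside the annotated gene, so that the last stretch of those windows is part of the gene. Those of Kap and Gusb are shown because Kap had the narrowest spread over the pools of the 4 genes and Gusb the largest difference between genotypes. Capitals mark matches on either strand. The motifs searched were a TATA box with the letters TATAAA, a GC box with the letters GGGCGG, the CCAAT box, and the half-site of the androgen response element with the letters AGAACA. The Kap window is chr6:133853668-133853917 and the Gusb window chr5:130003050-130003299, both on the minus strand and written 5′ to 3′.
Kap: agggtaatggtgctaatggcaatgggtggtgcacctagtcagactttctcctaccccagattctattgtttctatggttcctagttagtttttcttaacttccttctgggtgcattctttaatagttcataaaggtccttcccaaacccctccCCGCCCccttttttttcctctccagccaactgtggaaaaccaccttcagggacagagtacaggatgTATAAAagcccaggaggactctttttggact
Gusb: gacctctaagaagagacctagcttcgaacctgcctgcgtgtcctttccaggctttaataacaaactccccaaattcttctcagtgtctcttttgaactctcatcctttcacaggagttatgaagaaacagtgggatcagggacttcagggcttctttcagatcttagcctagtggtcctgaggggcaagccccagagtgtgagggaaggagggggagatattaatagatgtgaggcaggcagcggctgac
The Kap window holds 1 TATA box, which begins 31 bases before the start, and 1 GC box on the opposite strand, which begins 97 bases before it. The Gusb window holds none of the motifs. The Odc1 window (chr12:17544623-17544872, plus strand) is 80% G and C, against 45.6% for Kap, and holds 4 GC boxes, 1 of them in the stretch inside the gene. The Acsm3 window (chr7:119760673-119760922, plus strand) holds 2 CCAAT boxes, both in that stretch. The half-site AGAACA was in 0 of the 4 windows and in 16.1% of all 32851 windows of this length. The full element, made of this half-site, any 3 bases and then its reverse complement, was likewise in 0 of the 4 windows, and in 0.00913% of all. A TATA box was in 12.4% of all windows, a GC box in 32.7% and CCAAT in 33.8%. These are letters in a short window, and elements further away were not searched.

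The array check of the labels was clear. Usp2 had log2 values of 11.63 and 11.71 in the WT pools and 7.65 and 7.60 in the Usp2-KO pools, a difference of -4.04 (SE 0.07, limma adjusted p = 2.8e-08). It was the 1 gene of 19934 (0.00502%) with an adjusted p under 0.05 in limma, which compares the groups gene by gene with a spread steadied over all genes. With the littermate pools as a block the count was 153 (0.768%), and none of the 4 androgen-induced genes was among them. In that fit the spread came almost wholly from all genes together, with 90.6 degrees of freedom from the prior. Array medians lay between 7.44 and 7.46, and the arrays correlated between 0.997 and 0.998 across genes, which are not independent replicates. Nothing in the labels gives an array batch. Precision is limited by there being 4 arrays: with 2 pools a group, a two-sided exact permutation test has 0.333 as its smallest p.

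Of the 4 androgen-induced genes, Kap, Odc1 and Acsm3 differed by at most 0.07 on the log2 scale between kidneys with and without Usp2, and Gusb by 0.25. Their differences, Usp2-KO minus WT, ran from 0.03 to 0.25 on the log2 scale, and 0 of 4 passed the limma threshold (smallest adjusted p 0.446, for Gusb). At an unadjusted p under 0.05, 1 of the 4 was higher, against 5.22% of all genes.

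Kap, the marker of androgen action, had log2 values of 13.63 and 13.59 in WT pools 1 and 2 and of 13.63 and 13.68 in Usp2-KO pools 1 and 2. The groups overlapped, with WT pool 2 the lowest and Usp2-KO pool 2 the highest. WT kidney averaged 13.61 ± 0.03 (SD, n = 2 pools) and Usp2-KO kidney 13.66 ± 0.03 (SD, n = 2 pools). The difference of 0.04 (SE 0.07) had a 95% confidence interval from -0.12 to 0.20 and a limma adjusted p of 0.908. On the linear scale that interval runs from 0.92 to 1.15 times the WT level. The sign of this small difference turned (-0.01) when quantile normalization was repeated over the rows of named genes.

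Odc1, the polyamine enzyme, had log2 values of 12.50 and 12.34 in the WT pools and of 12.47 and 12.44 in the Usp2-KO pools. Both Usp2-KO values lay between those of the WT pools. The difference was 0.03 (SE 0.08, 95% confidence interval -0.15 to 0.22, limma adjusted p = 0.933). Without WT pool 2 it was -0.05, so its sign rests on that pool. The other Odc1 row had 12.31 and 12.09 in the WT pools and 12.25 and 12.19 in the Usp2-KO pools, a difference of 0.02. The 2 rows thus put the pools in the same order. The annotation lists nearly the same transcripts for both, and whether either also takes up signal from a copy of the gene is not known.

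Acsm3, the acyl-CoA synthetase, had log2 values of 12.58 and 12.38 in the WT pools and of 12.60 and 12.49 in the Usp2-KO pools. Pool 1 was above pool 2 in both genotypes, and the groups overlapped. The difference was 0.07 (SE 0.09, 95% confidence interval -0.13 to 0.27, limma adjusted p = 0.869). It was -0.03 without WT pool 2 and 0.17 without WT pool 1.

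Gusb, the lysosomal glucuronidase, was the only member of the 4 whose pools did not overlap between genotypes, which held for 38.9% of all genes. Its log2 values were 9.13 and 8.91 in the WT pools and 9.29 and 9.24 in the Usp2-KO pools. Both Usp2-KO pools were above both WT pools, and WT pool 2 was the lowest. The means were 9.02 ± 0.16 (SD, n = 2 pools) and 9.27 ± 0.03 (SD, n = 2 pools). The difference of 0.25 (SE 0.09, 95% confidence interval 0.05 to 0.44), or 1.19-fold, had an unadjusted p of 0.0212 and an adjusted p of 0.446 by limma. In the littermate comparisons it was 0.16 for pool 1 and 0.33 for pool 2. With the littermate block the adjusted p was 0.277. Without WT pool 2 the difference was 0.13, and without the other pools it lay between 0.22 and 0.36.

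**Figure D1:**
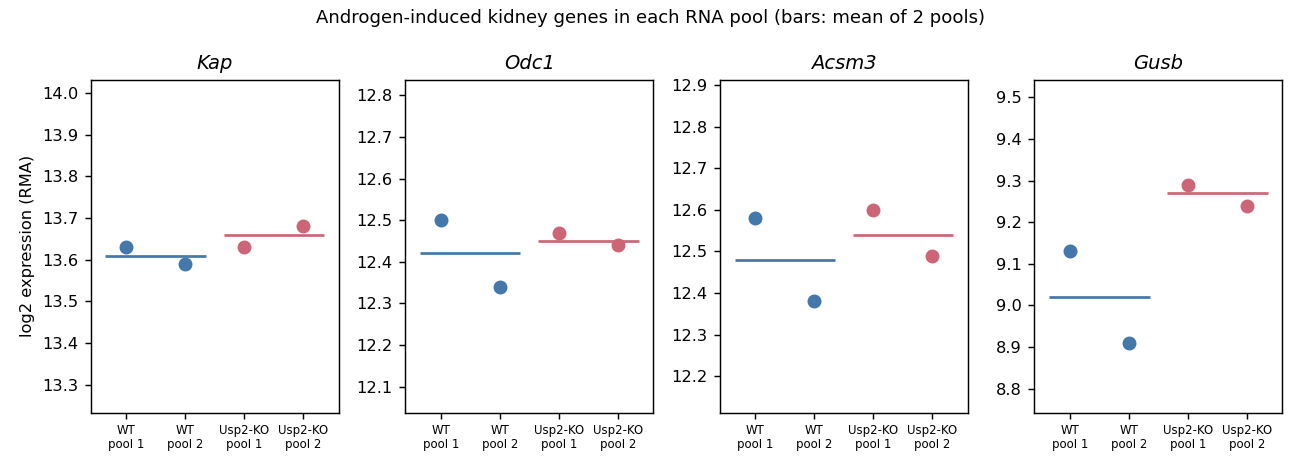
Log2 expression (RMA) of Kap, Odc1, Acsm3 and Gusb in each of the 4 RNA pools, WT in blue and Usp2-KO in red, with bars at the mean of the 2 pools of a genotype. Each vertical axis spans the same 0.8 log2 units around the mean of its gene, and WT pool 2 is the lowest point in all 4 panels, from 13.59 for Kap to 8.91 for Gusb.

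What the 4 genes share in the deposited values is the place of WT pool 2, which was the lowest of the 4 pools for each of them. After repeated quantile normalization WT pool 2 was the lowest for 3 of the 4. Relative to WT pool 1 it was lower by 0.04 for Kap, 0.17 for Odc1, 0.20 for Acsm3 and 0.22 for Gusb on the log2 scale. The Usp2-KO pools lay closer together than the WT pools for Odc1, Acsm3 and Gusb, with pool 2 minus pool 1 at -0.04, -0.11 and -0.05. For Kap this distance was 0.05, about that of the WT pools. WT pool 2 was the lowest pool for 22.3% of all genes, and for 22.9% of the 1195 genes with a mean log2 value of 11 or more. Without it, Kap and Gusb were still higher in Usp2-KO kidney while Odc1 and Acsm3 were lower, and the median difference of the 4 went from 0.05 to 0.00.

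Other genes that androgens induce, or that are higher in male than in female mouse kidney, showed the same placing of WT pool 2. Of 15 such genes besides the 4, WT pool 2 was the lowest of the 4 pools for 13. Counting the 4, it was the lowest for 17 of 19, and for 16 of 19 after repeated quantile normalization. It was also the lowest for 10 of 22 partners of steroid receptors and enzymes of androgen metabolism, against 22.3% of all genes. Among markers of other cells it was the lowest for 3 of 6 of the thick ascending limb and 0 of 5 of the endothelium. Of these 19 genes 18 were higher in Usp2-KO kidney, with a median difference of 0.05, where 47.5% of all genes were higher and the median was -0.01. After repeated quantile normalization 16 of 19 were higher, and without WT pool 2 only 10 of 19, with a median of 0.01. None of the 19 passed the limma threshold, with or without the littermate block, and 7 of 19 had both Usp2-KO pools above both WT pools, against 19.8% of all genes.

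Slco1a1, an organic anion transporter of the proximal tubule, had the largest difference of the 19. Its log2 values were 10.93 and 10.52 in the WT pools and 10.95 and 11.11 in the Usp2-KO pools. WT pool 2 stood lowest, and WT pool 1 was close to Usp2-KO pool 1. The difference was 0.31 (SE 0.13, limma adjusted p = 0.522), and it was 0.10 without WT pool 2. Slc22a30, of the organic anion transporter family, differed by 0.16 (SE 0.08, limma adjusted p = 0.614), and by 0.06 without WT pool 2. Cyp2d9, a male-biased cytochrome P450, differed by 0.11 (SE 0.07), and here WT pool 1 was the lowest. Cyp4b1, another cytochrome P450, differed by 0.04 and Nudt19, a peroxisomal hydrolase, by 0.02. Timd2, which encodes a ferritin receptor, was the 1 gene of the 19 with a lower mean in Usp2-KO kidney (-0.02), and the 1 with its highest value in WT pool 2. For 12 of the 19 genes the genotype difference was smaller than the distance between the WT pools.

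**Figure D2:**
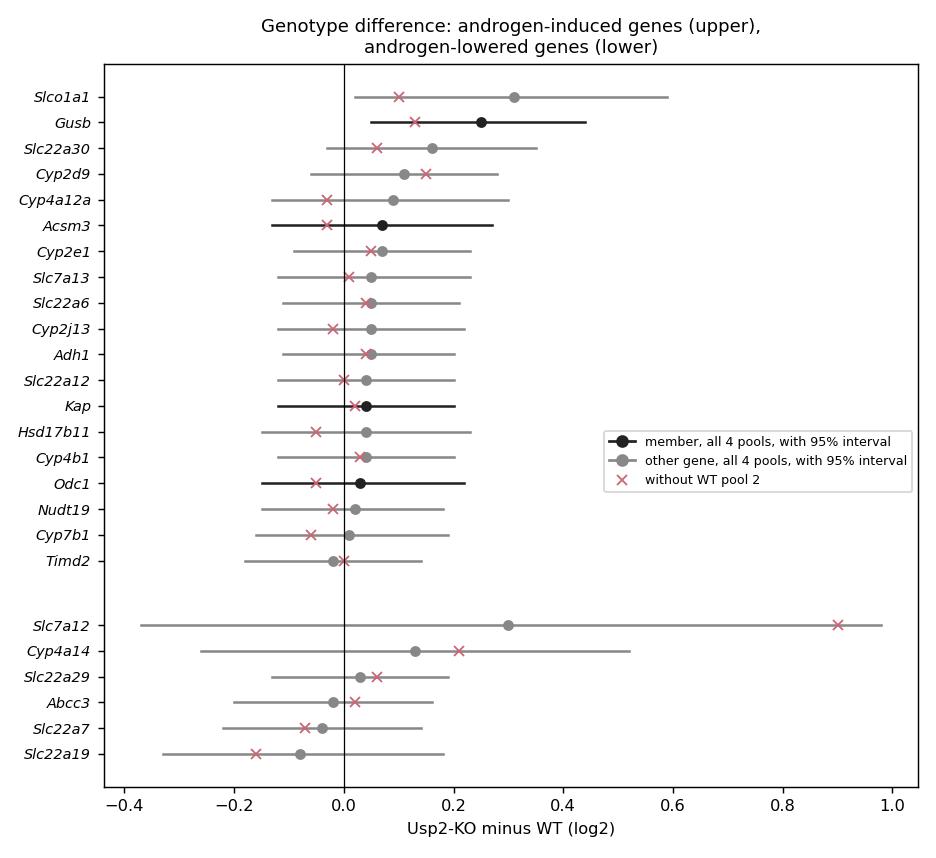
Usp2-KO minus WT on the log2 scale for 19 androgen-induced or male-biased genes (upper block) and 6 androgen-lowered or female-biased genes (lower block). Circles are the differences over all 4 pools, with limma 95% confidence intervals as lines, black for the 4 members, and red crosses are the differences without WT pool 2. The crosses of the upper block scatter around 0, from -0.06 for Cyp7b1 to 0.15 for Cyp2d9.

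Genes that are higher in female than in male mouse kidney, or that androgens lower, were also measured. In Usp2-KO kidney 3 of 6 such genes were higher and 3 lower, the median difference was 0.01, and none passed the limma threshold. Without Usp2-KO pool 2 all 6 were higher, with a median of 0.07, and without Usp2-KO pool 1 only 2 were, with a median of -0.10. Slc7a12, an amino acid transporter that is higher in female kidney, varied most. Its log2 values were 6.31 and 7.50 in the WT pools and 7.07 and 7.34 in the Usp2-KO pools. Slc7a12 was thus higher in WT pool 2 than in WT pool 1 by 1.19. Both Usp2-KO pools lay between them. The genotype difference was 0.30 (SE 0.30, limma adjusted p = 0.817), and it was 0.90 without WT pool 2 and -0.29 without WT pool 1. Cyp4a14, a fatty acid hydroxylase, had 8.06 and 8.22 in the WT pools and 8.59 and 7.95 in the Usp2-KO pools. Its order of pools was thus another one. Slc22a7 (-0.04) and Slc22a19 (-0.08), organic anion transporters, had their lowest values in Usp2-KO pool 2. Like the 4 androgen-induced genes, both were lower in WT pool 2 than in WT pool 1, with 10.52 against 10.58 for Slc22a7 and 11.03 against 11.20 for Slc22a19. The other 4 of the 6 genes were higher there.

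**Figure D3:**
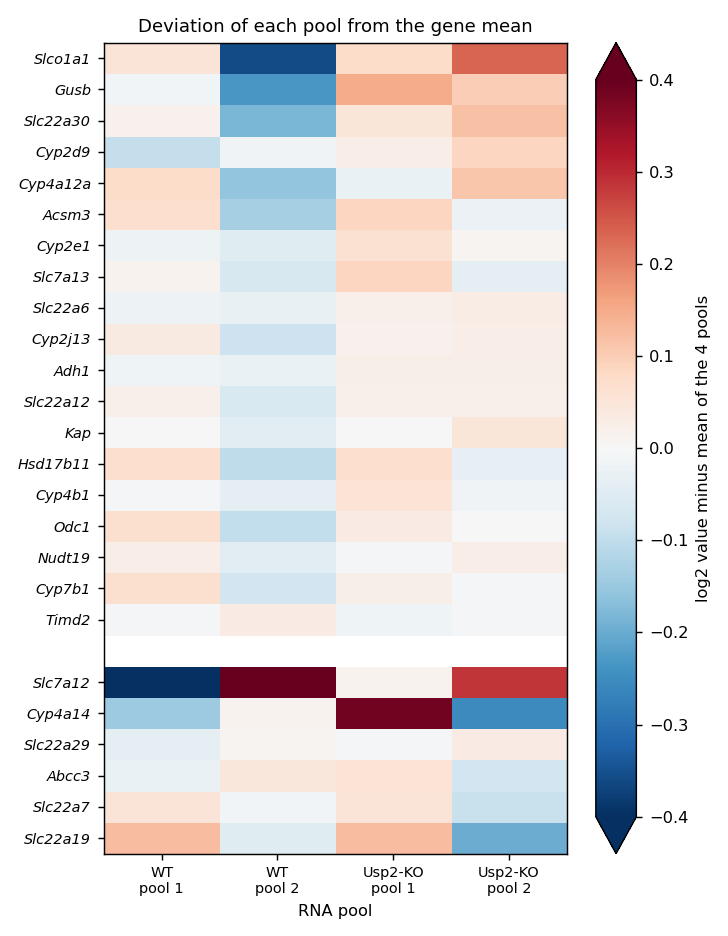
Log2 value of each pool minus the mean of the 4 pools, for the same 19 androgen-induced (upper block) and 6 androgen-lowered genes (lower block). Blue is below and red above the gene mean, and the scale is cut at 0.4 on either side. The column of WT pool 2 is blue for nearly all genes of the upper block, and in the lower block it is red for Slc7a12, with 7.50 against 6.31 in WT pool 1, and pale blue for Slc22a19, with 11.03 against 11.20.

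Markers of the tubule cells in which these genes are made were compared over the same pools. In bulk tissue, fewer cells of a type and less RNA per cell cannot be told apart. The 13 proximal tubule markers had a mean log2 value of 13.13 in WT pool 1, 13.13 in WT pool 2, 13.15 in Usp2-KO pool 1 and 13.13 in Usp2-KO pool 2. WT pool 2 was the lowest for 5 of the 13, and the genotype difference had a median of 0.02 with a range from -0.04 to 0.05. The 8 markers of the straight part of the proximal tubule had mean values of 11.75 and 11.67 in the WT pools and 11.78 and 11.73 in the Usp2-KO pools, with WT pool 2 the lowest for 5 of 8. That list shares Slco1a1, Slc7a13 and Cyp7b1 with the androgen-induced genes, and the proximal tubule list shares Slc22a6. WT pool 2 was the lowest for each of these shared genes. In the straight-part list, WT pool 2 minus WT pool 1 was -0.41 for Slco1a1, -0.14 for Cyp7b1 and -0.08 for Slc7a13. Among its markers not shared, it was 0.03 for Slc5a1, 0.10 for Slc22a13 and 0.03 for Slc16a9. For Slc1a1 it was -0.01 and for Atp11a -0.15, with WT pool 2 the lowest for both.

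Markers of other cells were placed differently from list to list. Of 4 podocyte markers 3 were lower in WT pool 2 than in WT pool 1, with a median of -0.08, as for the 19 androgen-induced genes. All 5 endothelial and all 6 immune cell markers were higher in WT pool 2 than in WT pool 1, with medians of 0.08 and 0.04, where 46.2% of all genes were lower in WT pool 2. The other lists had medians of Usp2-KO minus WT of 0.08 for 6 thick ascending limb markers, 0.19 for 8 of the distal tubule and collecting duct, and 0.05 for 4 of podocytes. The endothelial and immune lists had -0.05 and -0.03. In the distal list Calb1, a calcium-binding protein, had 10.80 and 10.83 in the WT pools and 11.14 and 11.38 in the Usp2-KO pools (0.44, SE 0.09, limma adjusted p = 0.286, and 0.00391 with the littermate block). Of the same 8 genes 6 were higher in Usp2-KO kidney and 2 lower, Slc12a3 (-0.06) and Pvalb (-0.08). Adipocyte markers (5 genes) had a median of -0.34, which was -0.04 without Usp2-KO pool 1 and -0.63 when the other knockout pool was left out. Of these, 4 were lower in Usp2-KO kidney, Lep by only -0.02, and 1 was higher, Fabp4 (0.12). Adipoq, the hormone adiponectin, had 7.10 and 7.08 in the WT pools and 6.28 and 6.95 in the Usp2-KO pools. Its limma adjusted p was 0.463, and 0.00378 with the littermate block, and that of Cidec, a lipid droplet protein, was 0.559 and 0.0171. In the littermate comparisons Adipoq was at -0.83 for pool 1 and -0.12 for pool 2, and Cidec at -0.80 and -0.04. The block fit, whose spread came almost wholly from all genes together, gave this disagreement little weight. Usp2-KO pool 1 stood lowest for Adipoq and Cidec, while the 4 androgen-induced genes had WT pool 2 lowest. Pancreatic markers (4 genes) had a median of -0.18, at mean levels between 5.93 and 7.06, below the array medians. Markers of the adrenal gland, a source of steroids next to the kidney, were lower in Usp2-KO kidney for 6 of 6, with a median of -0.09 at mean levels between 4.30 and 7.50. The part of any of these in the values of the androgen-induced genes was not tested.

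Partners of steroid receptors and enzymes of androgen metabolism were higher in Usp2-KO kidney for 19 of 22 genes, with a median of 0.09, and none passed the limma threshold. For 10 of 22 both Usp2-KO pools were above both WT pools, where the share of all genes was 19.8%. Without WT pool 2 these figures were 18 of 22 and a median of 0.07. Hsp90aa1, a chaperone that holds steroid receptors ready for hormone, had log2 values of 10.57 and 10.40 in the WT pools and 10.66 and 10.76 in the Usp2-KO pools. The difference was 0.22 (SE 0.08, limma adjusted p = 0.468), and 0.14 without WT pool 2. Fkbp5, a co-chaperone whose transcript responds to androgens and glucocorticoids, had 9.56 and 9.78 in the WT pools and 9.78 and 10.12 in the Usp2-KO pools. It differed by 0.28 (SE 0.12, limma adjusted p = 0.532), and by 0.11 without Usp2-KO pool 2. The coactivators Ncoa1 and Ncoa4 each differed by 0.14, with adjusted p-values of 0.638 and 0.622 by limma.

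Polyamine metabolism, the pathway that Odc1 opens, showed no common shift. In Usp2-KO kidney 5 of 18 genes were higher and 13 lower, with a median of -0.03 and a range from -0.10 to 0.08, and none passed the limma threshold. Without WT pool 2, 10 of 18 were higher, and likewise without Usp2-KO pool 2. Sat1, which acetylates polyamines for breakdown and export, differed by -0.09 (SE 0.07, limma adjusted p = 0.76). Atp13a2, a lysosomal polyamine exporter, differed by -0.08, as did Agmat, named for agmatine cleavage. Azin1 and Azin2 are relatives of Odc1 without its activity that free it from its inhibitor, antizyme. They differed by 0.08 and -0.03. Odc1 and its partners were therefore all within 0.10 of equality between the genotypes.

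Acyl-CoA synthetases related to Acsm3, with enzymes of acyl-glycine conjugation and fatty acid activation, had 13 of 17 genes higher in Usp2-KO kidney at a median difference of 0.04, and 11 of 17 after repeated quantile normalization. None passed the limma threshold. Glyat, which joins acyl groups to glycine, had log2 values of 11.50 and 11.48 in the WT pools and 11.65 and 11.61 in the Usp2-KO pools, and differed by 0.14 (SE 0.07, limma adjusted p = 0.591). Acsm1, a close relative of Acsm3, had 10.03 and 10.02 in the WT pools and 10.16 and 10.14 in the Usp2-KO pools. Its difference of 0.13 (SE 0.07, limma adjusted p = 0.636) was nearly the same in both littermate comparisons (0.13 and 0.12). Acsm2 differed by 0.08, Acsm5 by 0.05, Acot1, a thioesterase, by 0.13 and Acsm4 by -0.13. With each pool left out in turn, Acsm1 stayed between 0.12 and 0.13 and Glyat between 0.12 and 0.16. The differences of Acot1, Acsm2, Acsm5 and Acsm4 moved with single pools. Without Usp2-KO pool 1 Acot1 was at 0.04, Acsm2 at 0.04, Acsm5 at 0.00 and Acsm4 at 0.04, and the list median was 0.01. Without WT pool 2 Acsm2 was at 0.03, and without WT pool 1 Acsm5 was at 0.00. WT pool 2 was the lowest pool for 7 of these 17 genes.

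Gusb stood apart in size from the other genes of the lysosome. In Usp2-KO kidney 15 of 29 lysosomal genes were higher and 14 lower, with a median of 0.00. After repeated quantile normalization 11 were higher and 18 lower. The split was 22 and 7 without Usp2-KO pool 2, the lowest pool for 15 of the 29, and 11 and 18 without Usp2-KO pool 1. The 0.25 of Gusb was the largest difference in the list, whose lowest was -0.08, and Gusb was its 1 gene with an unadjusted p under 0.05, which 9.11% of all genes had. Without WT pool 2 Gusb was at 0.13, close to another gene of the list, Asah1, at 0.11. Arsb, a sulfatase that works on the same class of sugar chains, differed by 0.08 (SE 0.07). Naglu and Gla, other lysosomal glycosidases, each differed by -0.08, and the protease Ctsd by -0.03. WT pool 2 was the lowest pool for 6 of the 29 genes, or 20.7%, near the share of all genes.

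**Figure D4:**
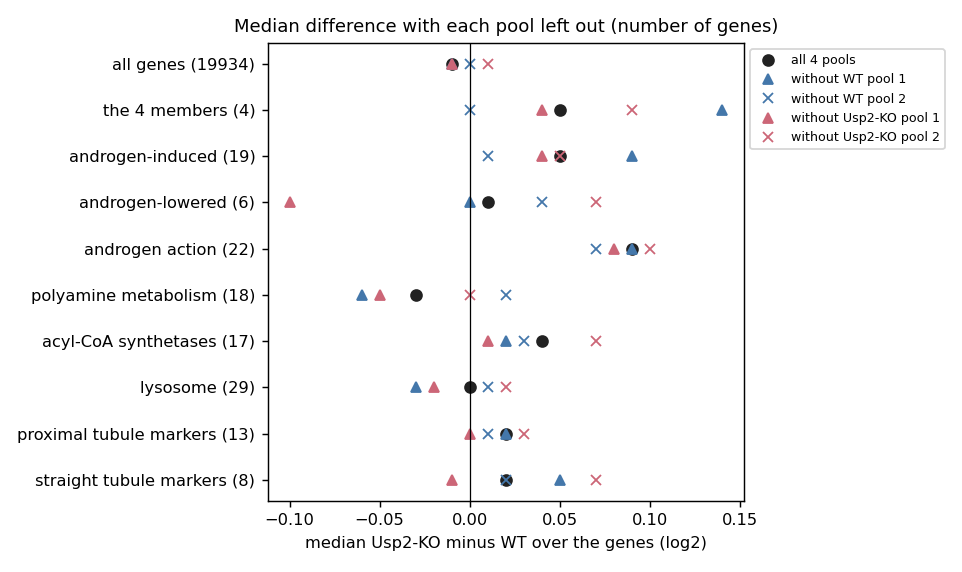
Median difference of Usp2-KO minus WT (log2) over the genes of each list, with all 4 pools (black circles) and with each pool left out in turn (blue for WT pools, red for Usp2-KO pools). The number of genes is in brackets. The median of the 19 androgen-induced genes moves between 0.01 without WT pool 2 and 0.09 without WT pool 1, while that of the 22 androgen action genes stays between 0.07 and 0.10.

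Likeness of pattern was measured as the distance between the values of 2 genes over the 4 pools, each centred on its own mean, among genes with a mean log2 value of 8 or more. Of the 6 pairs of members, Odc1 and Acsm3 were the closest (0.0658) and Kap and Gusb the farthest (0.249). The 3 nearest genes to Kap were Mmut (0.00374), Fkbp4 (0.00606) and Sft2d1 (0.0064), and 2451 of 8950 genes lay within 0.1 of it. Kap is therefore one of many transcripts with nearly equal values in all pools. Odc1 was closest to Hmox1 (0.00865), Dusp14 (0.0161) and Zbtb40 (0.0167), with 670 genes within 0.1. Acsm3 was closest to Fbxo34 (0.0245), St6gal1 (0.0267) and Dsp (0.0317), with 259. Gusb had the fewest neighbours, 36 within 0.1, and the closest were Bbx (0.0435), Nup54 (0.046) and Ibtk (0.0466). With 4 pools a close pattern is easily met.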

How the data were processed

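Each of the 4 arrays measured 1 pool of total RNA. The authors deposited log2 expression values made with RMA, per the submitters' processing notes, which corrects background, equalizes the distributions of the arrays and summarises probes per row. Its software version and any removal of rows are not given in the sources used here. Of 28270 rows, 21780 had exactly 1 gene symbol in the platform's annotation, 1617 had several and 4873 none. The row with the highest mean per gene left 19934 genes.

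The genotype difference (Usp2-KO minus WT) was estimated in limma 3.58.1 (R 4.3.3) with genotype alone in the model (8.87 degrees of freedom, 6.87 of them from the prior), with Benjamini-Hochberg adjustment over all genes. The labels pair same-numbered pools as littermates, and the deviations of such pools from their group means correlated at -0.121 across genes. Members, 6 gene lists and 10 marker lists were chosen with earlier results of these data known, and lists are described by counts and medians without a set test. In each list up to 4 genes of smallest p were named, with Azin1, Azin2, Acsm1, Acsm2, Acsm5, Ctsd, Slco1a1, Cyp4b1, Nudt19 and Slc7a12 always; other genes of this rule are not reported here. Timd2, Cyp7b1, Asah1, Calb1, Slc12a3, Pvalb, Adipoq, Cidec, Fabp4 and Lep were named after their values were seen. p-values rest on the spread between pools, steadied over all genes, and not on that between animals. With the littermate block 90.6 degrees of freedom came from the prior, so a gene's own spread counted for little in those p-values. Promoters came from RefSeq (GRCm38.p6). Figures were drawn with matplotlib 3.10.9.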

Additional observations from a re-analysis of the deposited data

How the results depend on the processing

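None of the 4 members passed the threshold under any alternative, namely the littermate (replicate) block, a crossed block added after the data were seen, an intensity trend, a robust prior, a signal filter (log2 mean of 6 or more), averaging a gene's rows, repeated quantile normalization, median centring and each pool left out. With the replicate block, Gusb was at 0.25 (limma adjusted p = 0.277), and no call changed for a member or a gene of the 6 gene lists. Of the marker genes, Calb1, Adipoq and Cidec passed with the block and not without it (limma adjusted p = 0.00391, 0.00378 and 0.0171). For Adipoq and Cidec the littermate comparisons were far apart. Repeated quantile normalization put Kap at -0.01. Genes called went from 1 to 153 with the replicate block, 18 with the trend, 7 with the signal filter and 1 with the crossed block, and were 1 to 2 with a pool left out. The median of the androgen action list was 0.10 with rows averaged and 0.08 after repeated quantile normalization.

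Where a pool was left out, the lone pool of its group was taken to vary like the other group. The values then ran from 0.02 to 0.07 for Kap, -0.05 to 0.12 for Odc1, -0.03 to 0.17 for Acsm3 and 0.13 to 0.36 for Gusb, and from 0.07 to 0.10 for the androgen action median. Signs turned for Acsm4 (-0.30 to 0.04), Azin2 (-0.08 to 0.01), Ctsd (-0.09 to 0.02), Cyp4a14 (-0.19 to 0.45), Gla (-0.18 to 0.03), Naglu (-0.18 to 0.02), Nudt19 (-0.02 to 0.06), Slc22a19 (-0.24 to 0.09), Slc22a7 (-0.12 to 0.03) and Slc7a12 (-0.29 to 0.90). The causes were not tested. The number of arrays, 2 a group, limits all of these.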
